A study of Capra hircus with 9 samples.

Results

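Long noncoding RNAs (lncRNAs) listed under 1 FPKM at the 2-cell stage and at similar levels of 10 FPKM or more in both kinds of 8-cell goat embryo were drawn from 3 RNA-seq libraries, 1 each of in vitro fertilized embryos at the 2-cell stage (IVF-2c), in vitro fertilized embryos at the 8-cell stage (IVF-8c) and 8-cell embryos made by somatic cell nuclear transfer (SCNT-8c). A lncRNA was a member if it stood under 1 FPKM in the IVF-2c library, if both 8-cell libraries held at least 10 FPKM of it, and if log2((IVF-8c + 0.1)/(SCNT-8c + 0.1)) lay between -2 and 2. FPKM sets the fragments of a transcript against its length and the library's mapped fragments. Of 36240 listed lncRNAs, 84 met the rule, which is 0.232%. The members were selected on all 3 values. A log2 ratio above 2 over IVF-2c, at 1 FPKM or more, was found for 19.2% of all lncRNAs in IVF-8c and for 12.1% in SCNT-8c, and the rule puts every member past it in both. The rise from the 2-cell stage and the closeness of the 8-cell embryos are thus descriptions and carry no test. With 1 library per condition there was also no replicate check, and stage or cloning cannot be told apart from the library.

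The RNA of each library came from pooled whole embryos, and cDNA was amplified with a low-input SMART-Seq kit before sequencing. The IVF embryos were made from abattoir oocytes and goat sperm. For the SCNT embryos the oocyte nucleus was replaced by that of a goat fetal fibroblast, so the cloned embryos carry the genome of 1 donor line. Per the paper, these fibroblasts were from a female fetus of the Saanen dairy breed. It gives neither sex nor breed for the IVF embryos. Donor sex and breed thus cannot be told apart from cloning. The donor cells were starved of serum before transfer and the reconstructed oocytes were activated chemically, with ionomycin and then 6-DMAP, while the IVF embryos were started by sperm, so this treatment cannot be told apart from cloning. The labels name no transgene in these 3 groups. The other 6 libraries of the series, from transfected fibroblasts, were not used here. The lncRNAs are transcripts assembled by Cufflinks and known by their TCONS number alone; neither their position nor their sequence is given here.

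Early embryos live first on RNA and protein stored in the oocyte. Embryonic genome activation, during which the embryo's own genome takes over transcription while maternal RNA is cleared, has its main wave around the 8-cell stage in goat and cattle. Many lncRNAs are transcribed for the first time in that wave, and in cloned embryos the donor nucleus has to be reprogrammed before it can take part.

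The mRNAs of the same libraries showed this stage change. Gene names could be given to 13518 of 30147 mRNA transcripts, and the level of a gene was summed over its transcripts. ARGFX, a homeobox factor of genome activation, went from 0.106 FPKM at the 2-cell stage to 843 FPKM in the fertilized and 628 FPKM in the cloned 8-cell library. KLF17, a Krüppel-like factor of early embryos, was listed at 0 in IVF-2c, with 87.6 FPKM in the fertilized and 46.2 FPKM in the cloned 8-cell library. EIF1AX, a translation initiation factor used as a marker of genome activation, went from 47.0 FPKM to 231 FPKM and 96.9 FPKM in the same order. These 3 are the genes at 10 FPKM or more among the 5 that could be matched from a list of 20 activation genes, with NANOG and SOX2 under 2 FPKM in each library. Past a log2 ratio of 2 at 1 FPKM or more in the higher one, IVF-8c exceeded IVF-2c for 3 of the 5. SCNT-8c exceeded IVF-2c for 2 of the 5. The same held for 5.48% and 3.95% of all mRNAs. Those shares, here and for the lists below, count single transcripts, while list genes were summed over theirs. They are thus not like for like.

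Maternal mRNAs were still abundant at the 8-cell stage. All 9 matched oocyte genes of 20 were at 1 FPKM or more in each library. Past a log2 ratio of 2, 3 of the 9 were lower in IVF-8c, beside 3.63% of all mRNAs, and 2 of the 9 were lower in SCNT-8c, beside 2.85%; none was higher. BTG4, which guides the clearing of maternal RNA, stood at 10551 FPKM in IVF-2c, against 7830 FPKM in the fertilized and 9371 FPKM in the cloned 8-cell library. ZAR1, an oocyte protein needed at the first cleavages, was at 201.9 FPKM, 27.2 FPKM and 30.7 FPKM in the same order. MOS, the kinase that holds the oocyte in meiosis, was at 1724 FPKM, 397 FPKM and 689.9 FPKM. The oocyte growth factors GDF9 (615 FPKM, 293 FPKM and 368 FPKM) and BMP15 (473 FPKM, 177 FPKM and 227 FPKM) stayed within that limit in both 8-cell libraries. So did the zona pellucida gene ZP2 (682 FPKM, 252 FPKM and 200.1 FPKM), the histone chaperone NPM2 (469.6 FPKM, 168 FPKM and 149.7 FPKM) and the kinase WEE2 (233 FPKM, 72.6 FPKM and 75.6 FPKM). The zona pellucida gene ZP4, at 607 FPKM, 139 FPKM and 105 FPKM, was past it in both.

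Markers of other cells were also present, and moved both ways. Of 12 matched fibroblast genes of 15, 3 were past the log2 ratio of 2 as higher in IVF-8c and 1 as lower, and 5 as higher in SCNT-8c and none as lower, beside the shares of all mRNAs given above. The cloned embryos were made from fibroblasts. The 5 were the collagen COL3A1 (0.00649 FPKM at the 2-cell stage and 1.43 FPKM in the cloned library), the matrix proteoglycan LUM (3.56 FPKM and 15.7 FPKM), PDGFRA (0 and 2.41 FPKM), S100A4 (0.112 FPKM and 1.98 FPKM) and THY1 (0 and 1.05 FPKM). In the fertilized 8-cell library COL3A1 was at 0.650 FPKM, LUM at 9.53 FPKM, PDGFRA at 2.77 FPKM, S100A4 at 2.61 FPKM and THY1 at 1.52 FPKM. The summed level of the list went from 155 FPKM at the 2-cell stage to 90.2 FPKM in the fertilized and 108 FPKM in the cloned library, and most of that sum was the proteoglycan DCN, at 116.6 FPKM, 56.3 FPKM and 57.4 FPKM. FN1, which encodes fibronectin, was at 24.4 FPKM, 10.7 FPKM and 14.6 FPKM in the same order. TAGLN, the gene past the log2 ratio of 2 as lower in IVF-8c, was at 3.69 FPKM, 0.512 FPKM and 2.85 FPKM. PDGFRA, S100A4 and THY1 were higher in the fertilized than in the cloned 8-cell library. The other matched fibroblast genes were lower there, DCN by little.

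Of 6 matched cumulus genes of 8, 1 was past the limit as higher and 1 as lower in IVF-8c, and 1 as higher in SCNT-8c. The higher one in both was TNFAIP6, a hyaluronan-binding protein of expanding cumulus, at 2.22 FPKM, 26.6 FPKM and 51.2 FPKM. The lower one in IVF-8c was STAR, which carries cholesterol for steroid synthesis, at 47.2 FPKM, 11.4 FPKM and 12.4 FPKM. HAS2, the hyaluronan synthase, was at 16.7 FPKM, 20.7 FPKM and 21.3 FPKM. The list summed to 66.4 FPKM, 59.1 FPKM and 85.2 FPKM. The 3 matched sperm genes of 8 summed to 0.017 FPKM, 4.21 FPKM and 3.09 FPKM. Of the 3, 1 was past the limit as higher in IVF-8c and 2 in SCNT-8c, beside the shares of all mRNAs given above. TNP1, at 0, 3.72 FPKM and 1.02 FPKM, was past it in both, and AKAP4, at 0.017 FPKM, 0.469 FPKM and 2.07 FPKM, in SCNT-8c. Whether such cells were present, and what part they had in the values of the members, was not tested.

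Most members were listed at exactly 0 in IVF-2c. That was so for 66 of the 84 (78.6%), and the other 18 lay between 0.00239 FPKM and 0.977 FPKM with a median of 0.163 FPKM. The share at 0 was 60.4% over all lncRNAs under 1 FPKM in IVF-2c, and 91.0% over the 647 other lncRNAs that were under 1 FPKM there and at 10 FPKM or more in IVF-8c. Among fertilized 8-cell embryos the members ranged from 10.1 FPKM to 1086 FPKM with a median of 31.7 FPKM. Among cloned embryos they ranged from just above 10 FPKM to 540 FPKM with a median of 23.6 FPKM. At 100 FPKM or more stood 11 members in fertilized and 12 in cloned 8-cell embryos, out of 127 and 125 of all lncRNAs at that level. The members held 4.70% of the summed lncRNA FPKM in IVF-8c and 3.75% in SCNT-8c. The 3 highest members alone held 36.4% of the members' sum in IVF-8c and 25.4% in SCNT-8c, so a few transcripts carried much of the group's level.

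TCONS_00288132 was the most abundant member. It was listed at 0 in IVF-2c, while the fertilized 8-cell library held 1086 FPKM and the cloned one 540 FPKM, the lncRNA of rank 8 in IVF-8c and of rank 15 in SCNT-8c. TCONS_00440151 went from 0.397 FPKM to 536 FPKM in the fertilized and 219 FPKM in the cloned embryos. TCONS_00004820 went from a listed 0 to 385 FPKM and 169 FPKM in the same order. These 3 were all higher in the fertilized than in the cloned embryos, with log2 ratios of 1.01, 1.29 and 1.19.

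TCONS_00136587, the fourth in abundance, went the other way. It held 129 FPKM in the fertilized and 286 FPKM in the cloned library, a log2 ratio of -1.14. TCONS_00623211 held 198 FPKM and 139 FPKM in the same order. TCONS_00573921 was at 139 FPKM and 110 FPKM, and TCONS_00000839 at 107 FPKM and 103 FPKM, which is nearly level. TCONS_00489729 stood at 163 FPKM and 73.6 FPKM, and TCONS_00005480 at 149 FPKM and 79.7 FPKM. TCONS_00065605 stood at 65.4 FPKM and 128 FPKM. All 7 were listed at 0 in IVF-2c.

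**Figure D1:**
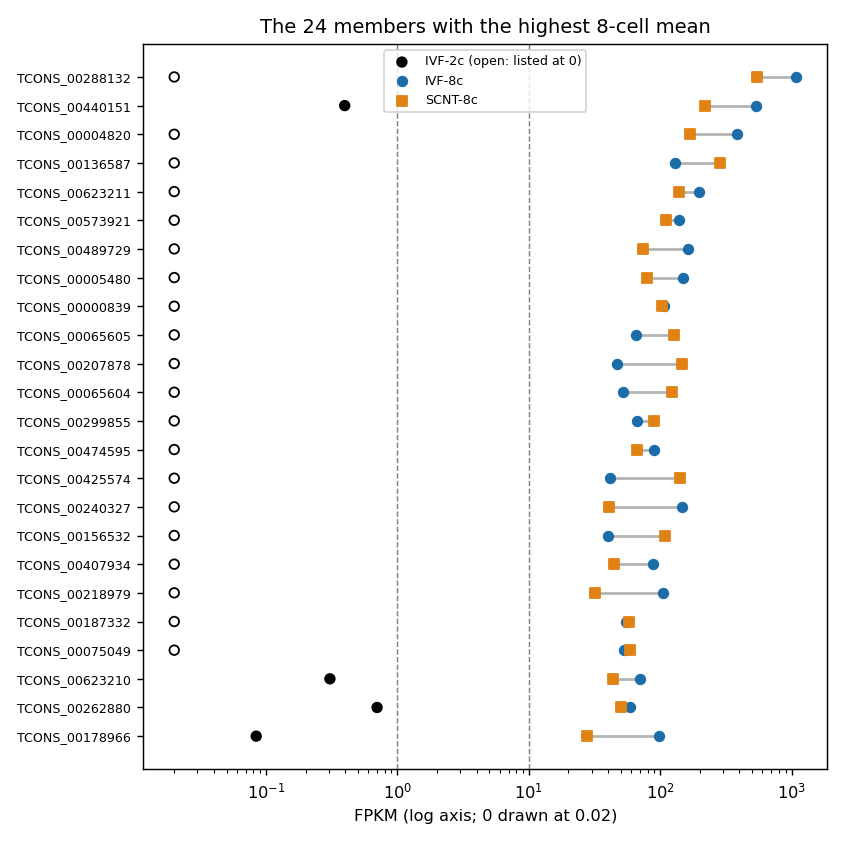
Expression level in FPKM on a log axis of the 24 members with the highest mean over both 8-cell libraries, with 1 point per library and open circles for lncRNAs listed at 0 in IVF-2c; the dashed lines mark 1 and 10 FPKM. TCONS_00288132 lies highest in both 8-cell libraries, at 1086 FPKM (IVF) and 540 FPKM (SCNT).

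Within the limit of the rule the members leaned towards the fertilized embryos. Of the 84, 55 were higher in IVF-8c and the other 29 in SCNT-8c. The median log2 ratio was 0.34, between quartiles of -0.49 and 0.95. Among the 749 other lncRNAs at 10 FPKM or more in both 8-cell libraries, within the same ratio limit but at 1 FPKM or more in IVF-2c, 37.0% were higher in IVF-8c and the median was -0.15. The median was 0 over all lncRNAs that reached 1 FPKM in any library. A lncRNA listed at 0 in both 8-cell libraries has a ratio of exactly 0 and can be in that set. That median is therefore no background for the members. The members were also spread more widely, with 67.9% within 2-fold of equal against 88.7% of the 749. These are counts in single libraries, and the difference between the 2 sets was not tested.

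The 5 members furthest towards IVF-8c were TCONS_00240327, TCONS_00178966, TCONS_00218979, TCONS_00327184 and TCONS_00642902, with log2 ratios from 1.67 to 1.85. TCONS_00240327 held 146 FPKM in the fertilized and 40.5 FPKM in the cloned library, and TCONS_00178966 at 98.0 FPKM and 27.6 FPKM. The 5 furthest towards SCNT-8c were TCONS_00505048, TCONS_00425574, TCONS_00207878, TCONS_00156532 and TCONS_00361553, with log2 ratios from -1.86 to -1.41. TCONS_00207878 held 46.5 FPKM in the fertilized and 147 FPKM in the cloned library, and TCONS_00156532 at 40.1 FPKM and 109 FPKM. At both ends, then, members differed about as much as the limit of the rule allowed.

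The 5 members nearest to equal were TCONS_00179529 at 17.5 FPKM (IVF) and 17.3 FPKM (SCNT), TCONS_00000839 given above, TCONS_00187332 at 55.3 FPKM and 57.5 FPKM, TCONS_00599992 at 18.9 FPKM and 19.7 FPKM, and TCONS_00255715 at 19.2 FPKM and 20.6 FPKM. In all, 15 members lay within 0.25 of equal on the log2 scale and 57 within 1. A further 19 were more than 2-fold higher in IVF-8c and 8 more than 2-fold higher in SCNT-8c.

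The limits cut through neighbouring values. TCONS_00624380 and TCONS_00440152 were members with 0.977 FPKM and 0.963 FPKM in IVF-2c. TCONS_00617831 and TCONS_00617830, at 1.03 FPKM and 1.06 FPKM, were left out although the fertilized 8-cell library held 961 FPKM and 410.0 FPKM of them and the cloned one 604 FPKM and 221 FPKM. At the limit of 10 FPKM in IVF-8c, TCONS_00001125 (10.1 FPKM) and TCONS_00505048 (10.4 FPKM) were in, and TCONS_00584402 (9.96 FPKM) and TCONS_00012439 (9.85 FPKM) were out. At that of SCNT-8c, TCONS_00367262 (just above 10 FPKM) and TCONS_00284929 (10.1 FPKM) were in, and TCONS_00546985 (9.96 FPKM) and TCONS_00311998 (9.94 FPKM) were out. At the ratio limit, TCONS_00240327 (1.85) was in, and TCONS_00599003 (2.01) and TCONS_00571606 (2.05) were out. Without the ratio limit there were 22 more lncRNAs, of which 19 were higher in IVF-8c and 3 in SCNT-8c.

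Some of these FPKM values stood for very few fragments. Many lncRNAs shared a value to all 6 printed digits with another lncRNA, 24.6% of those above 0 in IVF-8c and 24.4% in SCNT-8c, against 2.42% and 2.30% of mRNAs. The shared values formed a smooth series in each library, read here as the FPKM of 1 fragment at each transcript length. At the shortest length 1 fragment was worth 28.7 FPKM at the 2-cell stage, 13.9 FPKM in the fertilized and 26.2 FPKM in the cloned 8-cell library. A lncRNA of that length could thus pass the limit of 10 FPKM with a single fragment. At a length 250 steps longer, 1 fragment was worth 0.181 FPKM, 0.153 FPKM and 0.159 FPKM in the same order. The 2 8-cell libraries thus differed in this mainly at short lengths. For short members the FPKM ratio rests on that difference as well as on their fragments.

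Whole fragments were recovered in this way for 24 of the 84 members. The method and its threshold were chosen after the values were seen, among 20 ways of tracing the series and 3 ways of accepting a match. The 20 tracings recovered between 22 and 24 members, the other ways of accepting a match 22 and 27, and each of them found the same count of 14 members under 10 fragments. With the series of IVF-8c or of SCNT-8c moved by 1 length, at most 1 member was recovered. With that of IVF-2c moved, 21 or 22 were. Most of the 24 had no fragment in IVF-2c, so their recovery is a weak check of the lengths given to the IVF-2c series. The worth of fragments in IVF-2c given below, and the folds over it, depend on that series. For the other 60 members the number of fragments is unknown. Of these, 3 shared their IVF-8c value with another lncRNA and 2 their SCNT-8c value, so some may also rest on few fragments.

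Of the 24, 14 rested on fewer than 10 fragments over both 8-cell libraries together, between 2 and 6. TCONS_00377340, at 11.7 FPKM (IVF) and 21.6 FPKM (SCNT), was 1 fragment in each library. TCONS_00460152, at 65.4 FPKM and 24.6 FPKM, was 5 fragments and 1 fragment. TCONS_00262627, at 41.6 FPKM and 26.2 FPKM, was 3 fragments and 1. TCONS_00505048 and TCONS_00361553, among the 5 members furthest towards SCNT-8c, were 1 and 2 fragments, and 2 and 3 fragments. All 14 were at 0 in IVF-2c. At their lengths 1 fragment there was worth at least 9.83 FPKM, so the rule itself required the 0. In IVF-2c 3 fragments, the most that an unselected count of 0 allows at 95% confidence, would have been worth between 29.5 FPKM and 86.2 FPKM. None of the 14 was above that value in an 8-cell library. A rise from the 2-cell stage was therefore not detectable at this depth for these 14, and the 95% counting interval of the IVF-8c to SCNT-8c ratio held equality in each of them. Both outcomes follow largely from fragment numbers this small. They are limits of the counting and not findings about these lncRNAs.

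Of the other 10 members with recovered fragments, 8 were at 0 fragments in IVF-2c, and 7 of these stood above the worth of 3 fragments there in both 8-cell libraries. At the lengths of these 8, 1 fragment in IVF-2c was worth more than 1 FPKM, so the rule required their 0 as well. The bound of 3 fragments holds for an unselected 0, so the folds over it describe the values and are no test of a rise. The folds given here also take the 8-cell fragment number as exact, so they are no lower limits. TCONS_00288132 was 0 fragments at the 2-cell stage, then 83 in the fertilized and 22 in the cloned embryos. Against the 80.9 FPKM that 3 fragments would be worth in IVF-2c, its level was 13.4-fold in IVF-8c and 6.68-fold in SCNT-8c. TCONS_00004820 was 0, 88 and 24 fragments, with 15.9-fold and 6.96-fold the worth of 3 fragments. TCONS_00425574 was 0, 30 and 78 fragments, with 6.42-fold and 22.0-fold. TCONS_00299855, at 66.7 FPKM (IVF) and 89.8 FPKM (SCNT), was 0, 28 and 26 fragments, with 5.49-fold and 7.40-fold. TCONS_00443733 (11 and 17 fragments in the 8-cell libraries) was at 2.25-fold and 4.81-fold, TCONS_00447995 (12 and 8) at 2.66-fold and 2.25-fold, and TCONS_00046947 (8 and 9) at 1.49-fold and 2.59-fold. TCONS_00063371 (10 and 2) was at 1.83-fold in IVF-8c but at 0.577 of the worth of 3 fragments in SCNT-8c. A rise was not detectable there at this depth. For the 7 that stood above that worth a rise was not tested either, since the rule required their 0.

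The ratio of the 8-cell libraries, on which the members were selected, is given with its counting error as a description of these libraries and not as a test of the embryos. The log2 ratio between the fertilized and the cloned library had a 95% counting interval (exact, Clopper-Pearson) of 0.31 to 1.76 for TCONS_00288132, 0.52 to 1.90 for TCONS_00004820 and -2.44 to -1.15 for TCONS_00425574. It was -1.25 to 0.40 for TCONS_00299855, which holds equality. The remaining pair depended on the tracing. TCONS_00307974 was 5, 208 and 85 fragments in the 2-cell, fertilized 8-cell and cloned 8-cell libraries, and TCONS_00350482 was 1, 187 and 143, but they were recovered by 4 and 7 of the 20 tracings, the second at a length where the series was extended by a straight line. All 20 recovered the other 22 members. These intervals take the worth of 1 fragment in each library as exact. They cover counting error in amplified cDNA without molecular identifiers, and no variation between embryos.

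**Figure D2:**
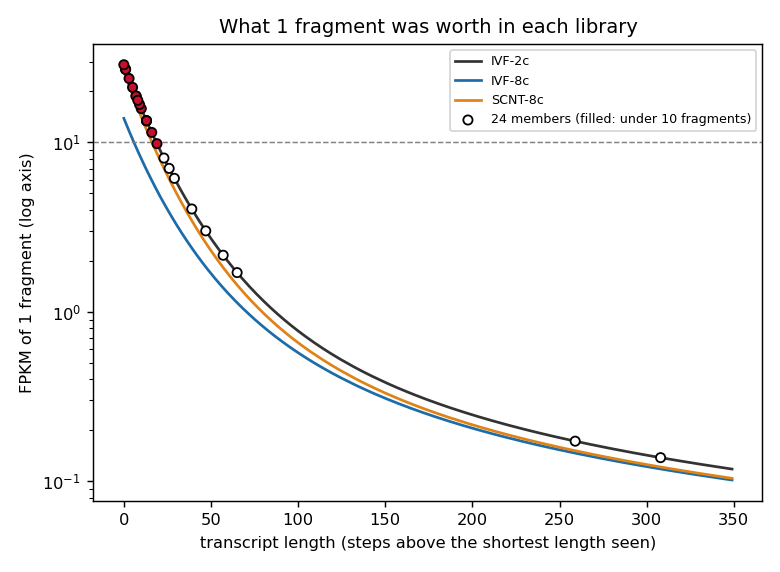
FPKM worth of 1 fragment (log axis) against transcript length, in steps above the shortest length seen, with 1 line per library; circles are the 24 members with recovered fragments, drawn on the IVF-2c line and filled where a member had fewer than 10 fragments in the 8-cell libraries. The dashed line marks 10 FPKM, which 1 fragment passes at the shortest lengths in all 3 libraries.

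**Figure D3:**
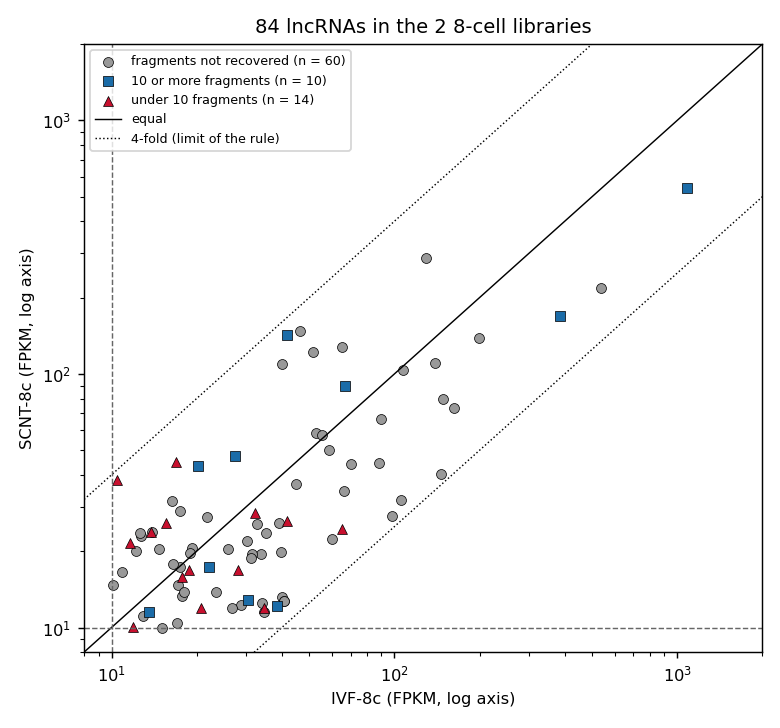
Expression level of the 84 members in IVF-8c and SCNT-8c (FPKM, both axes log), marked by the number of fragments recovered; the solid line is equality, the dotted lines the ratio limit and the dashed lines 10 FPKM. The 14 members under 10 fragments lie at or below 65.4 FPKM on the IVF-8c axis and 44.9 FPKM on the other.

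Of the lncRNAs under 1 FPKM in IVF-2c and at 10 FPKM or more in 1 of the 8-cell libraries, the members were 11.5% for IVF-8c and 15.0% for SCNT-8c. The shares below count the 84 members and the 22 lncRNAs beyond the ratio limit together. Of 731 lncRNAs under 1 FPKM in IVF-2c and at 10 FPKM or more in IVF-8c, 106 (14.5%) were at 10 FPKM or more in SCNT-8c, 154 at 1 to 10 FPKM, 48 above 0 but lower, and 423 (57.9%) listed at 0. Of 559 such lncRNAs of SCNT-8c, 106 (19.0%) were at 10 FPKM or more in IVF-8c and 417 (74.6%) listed at 0. For mRNAs the same shares were 145 of 229 (63.3%) and 145 of 161 (90.1%), with 3 and 1 listed at 0.

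The share rose with the level. It was 6.56% for the 457 lncRNAs at 10 to 20 FPKM in IVF-8c, 16.0% for the 212 at 20 to 50 FPKM, 55.9% for the 34 at 50 to 100 FPKM and 82.1% for the 28 at 100 FPKM or more. From SCNT-8c it went from 13.8% of 305 at 10 to 20 FPKM to 80.0% of 15 at 100 FPKM or more. Values shared with another lncRNA moved with it: of the 731, 309 had a shared value in IVF-8c and 5.18% of them were at 10 FPKM or more in SCNT-8c, against 21.3% of the 422 others. Their part in the result was not tested.

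**Figure D4:**
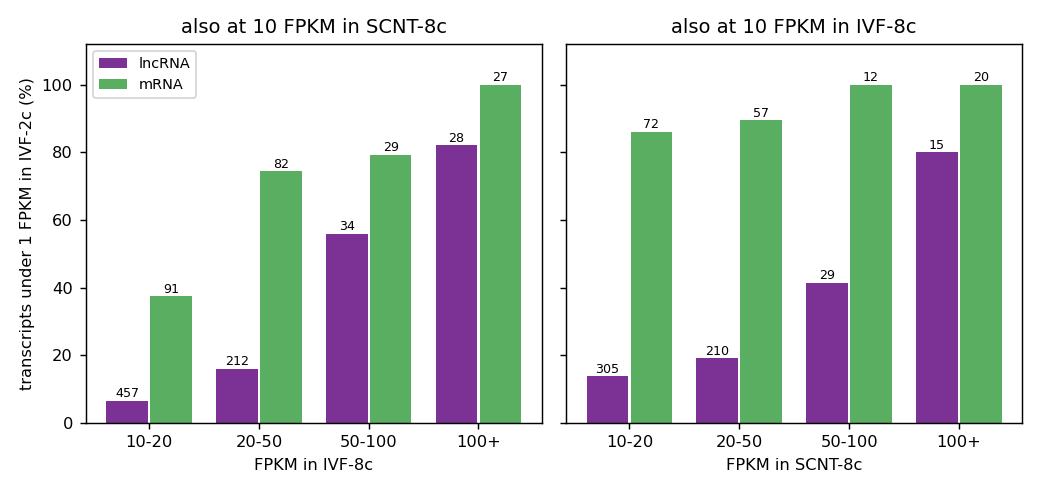
Percent of transcripts under 1 FPKM in IVF-2c that were at 10 FPKM or more in the other 8-cell library, by their level in IVF-8c (left) or SCNT-8c (right), for lncRNAs and mRNAs; the number over a bar is the transcripts in that class. For lncRNAs the bars go from 6.56% to 82.1% on the left and from 13.8% to 80.0% on the right.

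The rule found more lncRNAs with the 2-cell library as the low one than with another. With the libraries exchanged, 35 lncRNAs were under 1 FPKM in IVF-8c and alike at 10 FPKM or more in IVF-2c and SCNT-8c, and 17 were under 1 FPKM in SCNT-8c and alike in IVF-2c and IVF-8c, beside the 84. For mRNAs the counts were 145 with IVF-2c low, 4 with IVF-8c low and 1 with SCNT-8c low. The 145 mRNAs leaned the same way as the members, 117 of them (80.7%) higher in IVF-8c, with a median log2 ratio of 0.55. Only 38 of them (26.2%) were listed at 0 in IVF-2c. These counts come from the same values as the rule, the exchange with IVF-8c still crosses the 2-cell and 8-cell stages, and 1 fragment was worth different FPKM in each library, so they are no background for the 84.

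Members were scattered over the numbering of the assembly, from 839 to 642902. In 6 cases the next number was also a member, which made 5 runs of 11 members in all. Gaps of 10 numbers or less made up 7.23% of the gaps between members and 83.9% of those between all listed lncRNAs. For the 754 lncRNAs at 10 FPKM or more in both 8-cell libraries and at 1 or more in IVF-2c it was 19.9%. Larger sets lie closer together, so these shares are not like for like. TCONS_00262999, TCONS_00263000 and TCONS_00263001 were at 17.2 FPKM, 31.4 FPKM and 39.6 FPKM in IVF-8c, and at 14.7 FPKM, 19.5 FPKM and 19.8 FPKM in SCNT-8c. TCONS_00065604 and TCONS_00065605 both leaned towards SCNT-8c, with log2 ratios of -1.24 and -0.97. TCONS_00144461 and TCONS_00144462 leaned apart, with -0.94 and 0.29. TCONS_00440151 and TCONS_00440152 both leaned towards IVF-8c, with 1.29 and 0.60. So did TCONS_00623210 and TCONS_00623211, with 0.67 and 0.52. Adjacent numbers can be isoforms of 1 locus that share reads, which the table does not say, so these members may not be separate genes. Another lncRNA lay within 5 numbers of 67 members, and for 17 of them these neighbours summed to 1 FPKM or more in IVF-2c. The same shares over all lncRNAs are not given here, so this is no trait of the members. The sum was highest for TCONS_00156532, at 51.4 FPKM in IVF-2c, and next for TCONS_00425574, whose 3 neighbours summed to 44.5 FPKM in IVF-2c, 13.9 FPKM in the fertilized and 18.2 FPKM in the cloned 8-cell library. For these members a 0 in IVF-2c is that of the single transcript.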

How the data were processed

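RNA was measured in 3 libraries of pooled goat embryos (IVF-2c, IVF-8c and SCNT-8c, 1 library each), grouped by the sample labels. The authors assembled transcripts, removed those with coding potential and deposited FPKM for 36240 lncRNAs and 30147 mRNAs; per the labels, TopHat2 2.0.12, Bowtie2 2.2.3, Cufflinks 2.1.1 and Cuffdiff were used. The genome build is not given in the sources used here. Columns without a sample numbered 0.

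Ratios were log2 of FPKM + 0.1 (Python 3.11.15, numpy 2.4.6, pandas 2.3.3, scipy 1.17.1). No test was run. Members and gene lists were chosen with earlier results of these data known. Named lncRNAs were the 10 highest members, the 5 furthest each way, the 5 nearest to equal and the 2 either side of each limit. The runs of numbers within 10 were also named, the tied shorter ones partly after their values were seen. For mRNAs, list genes at 10 FPKM or more were named. Further members with few or many recovered fragments, and genes of lists under that level, were named after their values were seen. Symbols came from a RefSeq table of ARS1.2, matched without version.

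Because a library's FPKM values do not state depth, whole fragments were recovered from values shared by at least 3 lncRNAs, traced over 350 transcript lengths; beyond the first 60 lengths the series was also read from values divided by whole numbers, and past 260 it was extended by a straight line. A member was accepted at the shortest length that gave whole fragments in all 3 libraries within 2.5e-05 of the fragment number, with at most 0.001 matches expected by chance. The counting and the recovery were tested on simulated data. The simulated fragments were given the FPKM of the same traced series, so a wrong tracing or alignment of the series could not show there. The alternatives were other limits, pseudocounts and scalings.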

Additional observations from a re-analysis of the deposited data

How the results depend on the processing

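The number of members followed the 8-cell minimum, with 175 at 5 FPKM and 38 at 20 FPKM; higher in IVF-8c were 117 and 26 of them. Under the other planned limits, scalings and the pseudocount of 1 there were between 57 and 106 members. The median log2 ratio kept its sign under the alternatives run: 0.51 with median-ratio scaling over lncRNAs, 0.40 over mRNAs, 0.39 with either minimum and 0.33 with a pseudocount of 1. Without the 14 members under 10 recovered fragments, an alternative chosen after seeing the data, 70 members remained, 46 of them higher in IVF-8c, and the median was 0.37. The share of IVF-8c lncRNAs also in SCNT-8c was 17.9% at a minimum of 20 FPKM. The causes were not tested. No paired analysis was possible because each condition had 1 library. Fragment numbers, known for 24 members, limit what low FPKM values show.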
